A study of Homo sapiens with 8 samples.

Results

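Of the 8 enzyme genes followed here, which make NADPH or belong to the pentose phosphate pathway, 5 rose in factory RNA-Seq of IMR90 fibroblasts after 3 days of ICM and 5 after 6 days, while 1 fell at each time. Of all genes tested, 8.85% were called higher and 13.2% lower after 3 days, and 13.3% and 17.2% after 6 days, where called means an adjusted p under 0.05 and an absolute log2FC over 0.6. The genes were picked by symbol (PGD, TALDO1, TKT, RPIA, RPE, ME1, IDH1 and IDH2) out of 28265 in the count tables. They were chosen with earlier results of these data known, so the shares over all genes are a background and not a test. All 8 were found and passed the filter on low counts in every comparison. PGD, TALDO1, TKT, ME1 and IDH1 were the genes that rose and RPIA the gene that fell, at both times. RPE and IDH2 did not pass the test. In MetaICM libraries the log2FC of the 8 genes against control ran from −0.37 to 0.40.

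IMR90 are primary fibroblasts of human fetal lung, and ICM is inflachromene, a small molecule that binds HMGB1 and HMGB2. All cells were IMR90 at low passage: a control without ICM (named young in the labels, which give no vehicle), cells kept with ICM for 3 days, cells kept with ICM for 6 days, and cells labelled MetaICM, a treatment that the labels do not describe further. Each condition had 2 libraries, which the labels do not say came from separate cultures, so that p-values cover the spread between these libraries only and it may be technical. The study's methods describe single isolates of these cells, while its results speak of different isolates, among others for mRNA-Seq. Which isolates went into factory RNA-Seq is not stated, and the labels give no difference in genotype. Factory RNA-Seq is meant to capture nascent RNA from active sites of transcription, yet the extract protocol in the labels speaks of poly(A)+ selection. The counts analysed here lie on exons and so hold nascent and spliced transcripts alike.

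The pentose phosphate pathway branches from glycolysis at glucose phosphate. Its oxidative branch reduces NADP+ to NADPH and ends in ribulose phosphate, and its non-oxidative branch interconverts sugar phosphates, giving ribose for nucleotides or returning carbon to glycolysis. NADPH is also made by malic enzyme and isocitrate dehydrogenase, and cells spend it on keeping glutathione and thioredoxin reduced and on making fatty acids, cholesterol and deoxynucleotides.

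The libraries held between 12095123 and 23166405 counted read pairs, with a median of 18642269. Replicates correlated across genes with an r of 0.985 in control, 0.991 after 3 days, 0.994 after 6 days and 0.995 in MetaICM libraries, so the control libraries differed most from each other. All 9 fibroblast markers were detected, and their summed level was 54560 to 60490 CPM (read pairs per 1000000 counted, with TMM scaling) in control, 26520 to 27360 after 3 days, 20950 to 21150 after 6 days and 34600 to 37580 in MetaICM libraries. FN1 made up most of that sum in control (35280 ± 3979 CPM, SD, n = 2). Of the 9 markers, 7 were called lower after 3 days and 6 after 6 days. In MetaICM libraries FN1 alone was called lower (16300 ± 2761 CPM) and VIM was called higher, though not without MetaICM replicate 2, and the median log2FC of the list was −0.074. Of 11 markers of epithelial, endothelial, blood and smooth muscle cells, 8 had under 30 counts in each library, CD3E was at 0 throughout, and the sum was 75.0 to 80.7 CPM in control against 27.3 to 32.6 CPM in the other libraries. MYH11 of smooth muscle carried that fall, with 69.6 ± 5.64 CPM in control, 8.34 ± 1.07 after 3 days, 6.46 ± 0.43 after 6 days and 13.0 ± 1.11 in MetaICM libraries. CD68, a macrophage marker, was called higher in all 3 comparisons with control, by a log2FC of 1.92, 1.90 and 1.41. PTPRC, another blood marker, had at most 24 counts in a library, and the endothelial markers PECAM1 and CDH5 at most 9 and 1. VWF of endothelium was called higher after 6 days (0.88), though not with DESeq2 or without either 6-day library. The part of these shifts in the changes below was not tested, and in bulk RNA fewer cells of a type and less RNA per cell cannot be told apart.

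The proximal promoters of the 8 genes were read for the core of the antioxidant response element, the DNA motif bound by NRF2 with small MAF proteins, because several of the genes moved together. The letters searched were TGACNNNGC, on both strands, in the RefSeq promoters (GRCh38.p14, 250 bases before to 50 bases after each listed start). A match was found for 4 of the 8 genes, ME1, PGD, IDH1 and RPE, and for 13.3% of the 35116 promoters of 300 bases in the table, some genes having several. The 250 bases before the start of these 4 genes are shown 5′ to 3′ on the gene's strand, with the match in capitals. RPE is included as the gene with a match that did not pass the test in either ICM comparison against control.
ME1, chr6:83431052-83431301, minus strand: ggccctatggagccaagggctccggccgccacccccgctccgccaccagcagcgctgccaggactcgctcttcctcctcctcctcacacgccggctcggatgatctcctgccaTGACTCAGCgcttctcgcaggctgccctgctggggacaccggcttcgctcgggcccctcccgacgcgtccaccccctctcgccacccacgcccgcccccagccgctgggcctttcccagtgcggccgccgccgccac
PGD, chr1:10398814-10399063, plus strand: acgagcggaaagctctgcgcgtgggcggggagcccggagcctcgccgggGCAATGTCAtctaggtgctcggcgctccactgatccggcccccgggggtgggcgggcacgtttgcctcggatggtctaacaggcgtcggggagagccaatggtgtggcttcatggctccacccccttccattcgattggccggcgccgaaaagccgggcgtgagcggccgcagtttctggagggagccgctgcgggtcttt
IDH1, chr2:208255072-208255321, minus strand: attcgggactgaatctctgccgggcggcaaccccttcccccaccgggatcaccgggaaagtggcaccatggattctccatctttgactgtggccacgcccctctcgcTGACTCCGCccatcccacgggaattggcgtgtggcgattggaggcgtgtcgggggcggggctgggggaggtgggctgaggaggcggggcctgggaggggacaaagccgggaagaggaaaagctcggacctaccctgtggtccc
RPE, chr2:210002388-210002637, plus strand: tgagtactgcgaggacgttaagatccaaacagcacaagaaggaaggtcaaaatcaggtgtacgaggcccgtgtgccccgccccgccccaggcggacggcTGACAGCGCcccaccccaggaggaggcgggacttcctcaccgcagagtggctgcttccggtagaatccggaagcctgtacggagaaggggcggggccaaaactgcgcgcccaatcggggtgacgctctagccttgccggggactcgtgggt
The matches began at −137 in ME1, −201 in PGD, −143 in IDH1 and −151 in RPE, counted from the base before the start as −1. In PGD the capitals read the motif on the opposite strand. ME1 had another match just after its start, and IDH1 has a pair of listed starts, of which the one shown held the match. TALDO1, TKT, RPIA and IDH2 had none in this window. A match describes letters and is neither a bound site nor a cause, and these samples hold no measurement of binding.

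**Figure D1:**
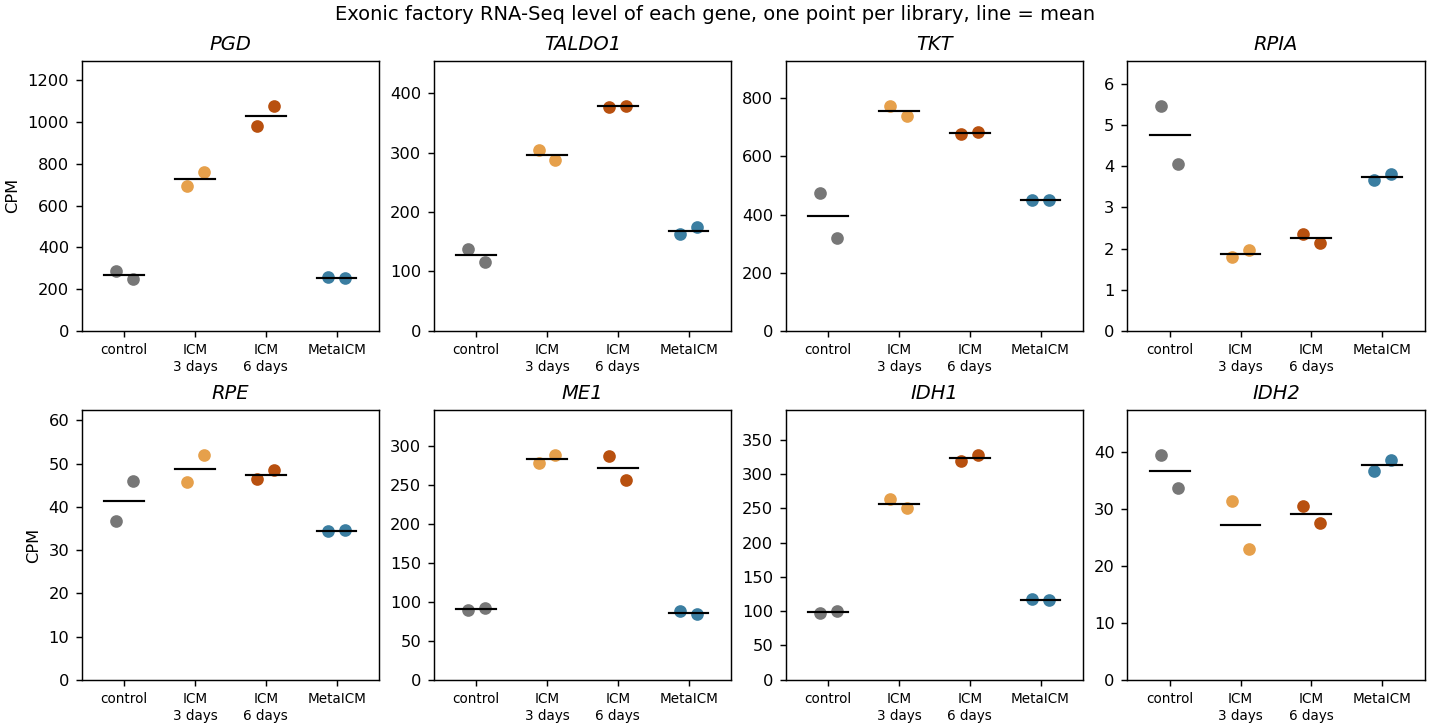
Level of each enzyme gene in CPM (vertical axis, starting at 0) in the 4 conditions, with a point for each of the 2 libraries and a line at their mean. PGD, TALDO1, TKT, ME1 and IDH1 stand higher in all ICM libraries than in control and MetaICM libraries, whereas RPIA stands lower. The share of all genes that separate in this way was not counted.

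PGD, which encodes the phosphogluconate dehydrogenase that makes NADPH in the oxidative branch, had the largest 6-day rise of the 8 genes. It lies on chromosome 1 of hg19 from 10459121 to 10480568. Its level was 287.8 and 248.6 CPM in the control libraries, 692.6 and 763.0 CPM after 3 days, 980.4 and 1077 CPM after 6 days, and 257.3 and 250.4 CPM in MetaICM libraries. The 3-day and 6-day libraries were separate from each other and from all others, while control and MetaICM libraries overlapped. How many of all genes separate in this way was not counted. With 2 libraries a group, such separation, here and for the genes below, only describes the levels. Against control the log2FC was 1.44 after 3 days (standard error, SE, 0.13, edgeR quasi-likelihood adjusted p = 6.38e-06) and 1.94 after 6 days (SE 0.12, adjusted p = 1.09e-06). The step from 3 to 6 days, a log2FC of 0.50 (95% interval 0.31 to 0.68, adjusted p = 0.000604), passed on p and fell short of the cutoff of 0.6.

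In the non-oxidative branch, TALDO1 and TKT encode transaldolase and transketolase, which shuttle carbon units between sugar phosphates. TALDO1 (chromosome 11, 747464 to 765012) had 138.3 and 115.8 CPM in control, 304.8 and 287.1 CPM after 3 days, 376.9 and 378.4 CPM after 6 days, and 162.7 and 174.3 CPM in MetaICM libraries. No pair of conditions overlapped. Relative to control, TALDO1 changed by 1.22 on the log2 scale after 3 days (SE 0.13, adjusted p = 2.52e-05) and 1.57 after 6 days (SE 0.12, adjusted p = 3.81e-06). As for PGD, its 6-day level lay above the 3-day level on p alone (log2FC 0.35, adjusted p = 0.00751).

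TKT (chromosome 3, 53258723 to 53290130) had 473.8 and 318.4 CPM in control, 773.7 and 738.5 CPM after 3 days, 676.8 and 683.2 CPM after 6 days, and 451.5 and 448.4 CPM in MetaICM libraries. Its control libraries were the widest apart of any gene among the 8 in CPM, with MetaICM between them, and both ICM groups were above. The rise was 0.93 on the log2 scale after 3 days (SE 0.17, adjusted p = 0.00145) and 0.78 after 6 days (SE 0.16, adjusted p = 0.00353). Without control replicate 2 the 6-day log2FC became 0.52, under the cutoff. Unlike PGD and TALDO1, TKT was not higher after 6 than after 3 days (log2FC −0.16, 95% interval −0.34 to 0.021, adjusted p = 0.213).

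RPIA and RPE encode the isomerase and the epimerase that turn ribulose phosphate into ribose phosphate and xylulose phosphate, the entry point of the non-oxidative branch. RPIA (chromosome 2, 88991191 to 89050446) was low throughout, at 29 to 92 counts per library. Its level was 5.47 and 4.06 CPM in control, 1.79 and 1.96 CPM after 3 days, 2.36 and 2.13 CPM after 6 days, and 3.66 and 3.82 CPM in MetaICM libraries. Every ICM library was below every control and MetaICM library. RPIA fell by 1.36 on the log2 scale after 3 days (SE 0.29, adjusted p = 0.00449) and by 1.10 after 6 days (SE 0.26, adjusted p = 0.00705). The 6-day call was lost without 6-day replicate 2 (log2FC −1.02, adjusted p = 0.0538).

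RPE (chromosome 2, 210867289 to 210886984) had 36.7 and 46.0 CPM in control, 45.7 and 52.0 CPM after 3 days, 46.3 and 48.5 CPM after 6 days, and 34.3 and 34.6 CPM in MetaICM libraries. Its 3-day libraries overlapped the control. Log2FC against control was 0.24 after 3 days (95% interval −0.095 to 0.57, adjusted p = 0.27) and 0.20 after 6 days (95% interval −0.11 to 0.51, adjusted p = 0.282). Of its exon bases, 24.0% overlap KANSL1L on the opposite strand, and pairs that fell on both genes were not counted. RPEL1, a close relative of RPE, had at most 6 counts in a library.

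ME1 encodes the cytosolic malic enzyme, which turns malate into pyruvate and makes NADPH. It lies on chromosome 6 from 83920121 to 84140770 and had 89.7 and 92.1 CPM in control, 278.2 and 288.5 CPM after 3 days, 286.9 and 257.0 CPM after 6 days, and 88.1 and 84.5 CPM in MetaICM libraries. The 3-day and 6-day libraries overlapped each other and stood apart from the rest. Its log2FC of 1.64 after 3 days (SE 0.12, adjusted p = 9.73e-07) was the largest of the 8 genes at that time, and after 6 days it was 1.58 (SE 0.11, adjusted p = 2.42e-06). From 3 to 6 days the difference was −0.063 (95% interval −0.25 to 0.12, adjusted p = 0.676).

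IDH1 and IDH2 encode the NADP-dependent isocitrate dehydrogenases of the cytosol and of the mitochondria. IDH1 (chromosome 2, 209100951 to 209119867) had 98.0 and 100.3 CPM in control, 263.0 and 250 CPM after 3 days, 318.5 and 327.7 CPM after 6 days, and 117.4 and 116.6 CPM in MetaICM libraries. The groups did not overlap. It rose by a log2FC of 1.37 after 3 days (SE 0.12, adjusted p = 5.16e-06) and 1.70 after 6 days (SE 0.11, adjusted p = 1.03e-06), and the step between the times was 0.33 (adjusted p = 0.0106), short of the cutoff.

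IDH2 (chromosome 15, 90626279 to 90645786) had 39.5 and 33.8 CPM in control, 31.5 and 23.1 CPM after 3 days, 30.7 and 27.5 CPM after 6 days, and 36.7 and 38.7 CPM in MetaICM libraries. All ICM libraries were lower than all control libraries, but the log2FC of −0.42 after 3 days (95% interval −0.80 to −0.044, adjusted p = 0.0892) and −0.34 after 6 days (95% interval −0.64 to −0.038, adjusted p = 0.0672) did not pass. Of its exon bases, 3.69% overlap IDH2-DT on the opposite strand. Per kb of exon, IDH1 stood at 2.48 and 2.98 times IDH2 in control, 8.36 and 10.9 times after 3 days, 10.4 and 11.9 times after 6 days, and 3.20 and 3.02 times in MetaICM libraries. This ratio within a library was higher in every ICM library than in every other.

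**Figure D2:**
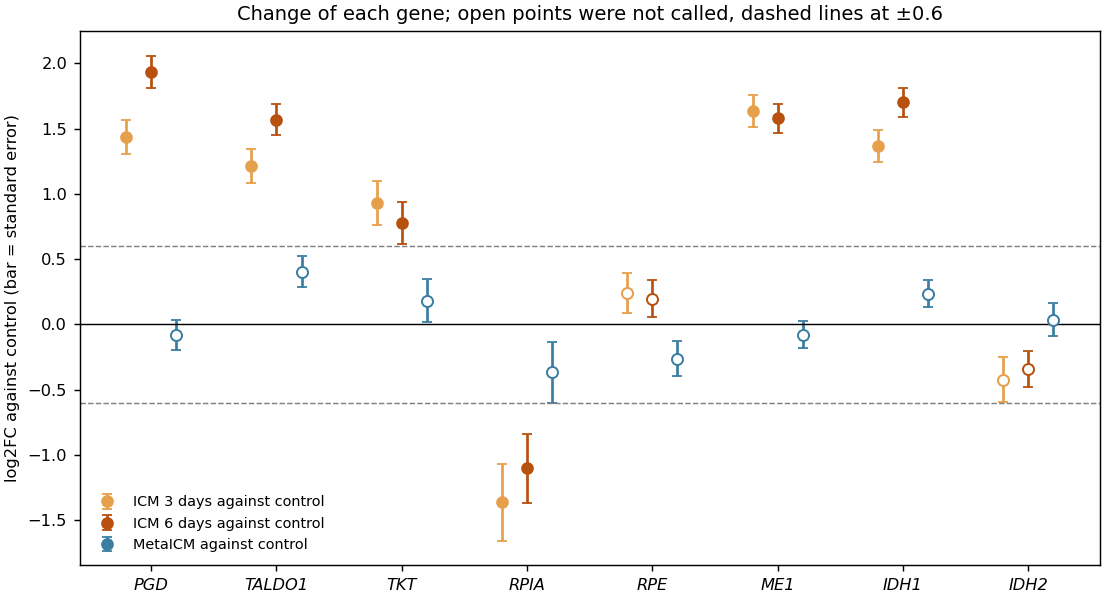
Log2FC of each enzyme gene against control (vertical axis, bars are standard errors) after 3 and 6 days of ICM and in MetaICM libraries; filled points passed both cutoffs, open points did not, and dashed lines lie at ±0.6. PGD, TALDO1, TKT, ME1 and IDH1 lie above the upper line with ICM, RPIA lies below the lower line, and no MetaICM point is filled.

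The background for these counts was 15692 genes tested after 3 days, of which 1389 were higher and 2067 lower, and 15950 after 6 days, of which 2121 were higher and 2738 lower. The median log2FC over the 8 genes was 1.07 after 3 days and 1.17 after 6 days, against 0.0094 and −0.0013 over all genes tested. As the 8 genes were chosen with earlier results of these data known, this contrast is description and not a test. With library totals in place of TMM factors, 50.3% rather than 40.2% of all 3-day calls were rises.

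Between the ICM times, 3.53% of 15845 genes were higher and 4.54% lower after 6 days. In edgeR's quasi-likelihood test 0 of the 8 genes were called there, and 0 with DESeq2. There, 3 (PGD, TALDO1 and IDH1) had an unadjusted p under 0.05, and also an adjusted p under 0.05, with sizes under the cutoff. Over all 15845 genes, 2515 had an unadjusted p under 0.05 with a higher level after 6 days and 2598 with a lower one. RPIA differed by 0.26 (95% interval −0.35 to 0.88) and IDH2 by 0.076 (95% interval −0.21 to 0.36), the interval of RPIA reaching past the cutoff.

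MetaICM libraries were compared with control and with both ICM times. Against control, 7.41% of 15904 genes were higher and 8.99% lower, while edgeR's quasi-likelihood test called 0 of the 8 genes and DESeq2 0. TALDO1 and IDH1, 2 of the 8, had an unadjusted p under 0.05. Over all 15904 genes, 3162 had such a p with a higher level in MetaICM libraries and 3240 with a lower one. TALDO1 was 0.40 higher on the log2 scale (95% interval 0.14 to 0.66, adjusted p = 0.0305), under the cutoff for size, and IDH1 0.24 higher (95% interval 0.0084 to 0.46, adjusted p = 0.112). For PGD the difference from control was −0.083 (95% interval −0.33 to 0.17) and for ME1 it was −0.077 (95% interval −0.31 to 0.15). That of TKT was 0.18 (95% interval −0.18 to 0.54), of RPIA −0.37 (95% interval −0.88 to 0.15) and of RPE −0.26 (95% interval −0.56 to 0.038).

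Against 6 days of ICM, MetaICM libraries had 15.7% of 16036 genes higher and 12% lower, and 1 of the 8 enzyme genes higher and 4 lower. PGD was lower by the most, with a log2FC of −2.02 (SE 0.08, adjusted p = 8.27e-15), followed by ME1 at −1.66, IDH1 at −1.46 and TALDO1 at −1.16. TKT was at −0.60 (adjusted p = 6.06e-07), just inside the cutoff, and crossed it under DESeq2, under the other scalings and without 6-day replicate 1 (−0.61). RPIA was higher by 0.74 (SE 0.23, adjusted p = 0.00982), a call lost with DESeq2 (adjusted p = 0.0804) and without MetaICM replicate 2 (adjusted p = 0.0639). RPE at −0.46 (adjusted p = 6.57e-05) and IDH2 at 0.38 (adjusted p = 0.00118) passed on p alone.

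Against 3 days of ICM, 13.1% of 16209 genes were higher in MetaICM libraries and 10.3% lower, and of the 8 genes 1 was higher and 5 lower. ME1 was at −1.71 (SE 0.08, adjusted p = 7.88e-10), PGD at −1.51, IDH1 at −1.13, TALDO1 at −0.81 and TKT at −0.74. RPIA was at 1.01 (SE 0.25, adjusted p = 0.00473). IDH2 was at 0.46 (adjusted p = 0.00968), under the cutoff, and at 0.71 without 3-day replicate 1. These comparisons share libraries with those above, so their calls are not independent of them.

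Added up, the 8 genes took 1169 and 959 CPM in control, 2391 and 2404 CPM after 3 days, 2719 and 2801 CPM after 6 days, and 1152 and 1151 CPM in MetaICM libraries. Per kb of exon, which allows levels of different genes to be set side by side, PGD, TALDO1 and TKT were the most abundant of the 8 in every library and RPIA the least. In control, PGD stood at 108 ± 11.2 CPM per kb (SD, n = 2), TALDO1 at 106 ± 13.2 and TKT at 127 ± 35.3, ranges that overlapped. After 6 days PGD stood at 416 ± 27.5 CPM per kb, TALDO1 at 315 ± 0.91 and TKT at 218 ± 1.45, with no overlap. The share of PGD in the summed CPM per kb was 24.6% and 25.7% in control and 34.4% and 36.6% after 6 days, while that of TKT was 32.1% and 26.2% in control and 18.8% and 18.4% after 6 days.

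**Figure D3:**
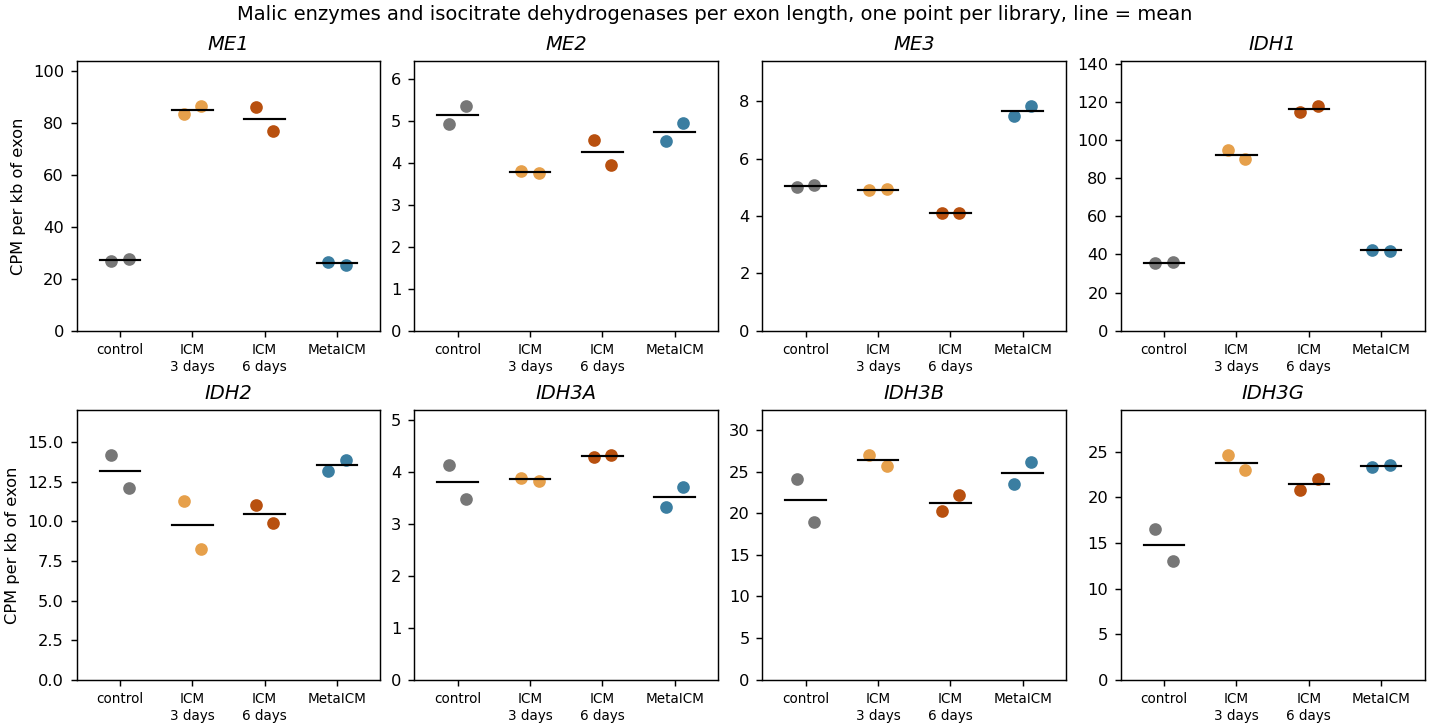
Level per kb of exon (CPM per kb, vertical axes from 0) of the malic enzyme genes ME1, ME2 and ME3 and of the isocitrate dehydrogenase genes IDH1, IDH2, IDH3A, IDH3B and IDH3G, with a point for each of the 2 libraries of a condition and a line at their mean. ME1 and IDH1, the cytosolic enzymes, stand far higher in ICM libraries than in the others, unlike the mitochondrial ones.

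The mitochondrial relatives of ME1 and IDH1 gave other values. ME2, a mitochondrial malic enzyme, was at 44.4 and 48.3 CPM in control, 34.4 and 34.0 CPM after 3 days, 41.1 and 35.7 CPM after 6 days, and 40.8 and 44.5 CPM in MetaICM libraries. Its log2FC was −0.44 after 3 days (adjusted p = 0.0311), short of the cutoff, and −0.28 after 6 days (adjusted p = 0.112). ME3, the NADP-dependent mitochondrial form, had log2FC of −0.037 after 3 days and −0.30 after 6 days, neither past the test. In MetaICM libraries it was called higher at 0.60 (adjusted p = 0.009), right at the cutoff, and was not called with DESeq2, without control replicate 1 or without either MetaICM library. IDH3A, IDH3B and IDH3G encode the NAD-dependent enzyme of the TCA cycle, of which IDH3G rose after 3 days (log2FC 0.68, adjusted p = 0.00707). Of the exon bases of IDH3A, 63.9% overlap ACSBG1 on the opposite strand. Pairs that fell on both genes were not counted, so the level of IDH3A per kb may be too low beside the others.

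**Figure D4:**
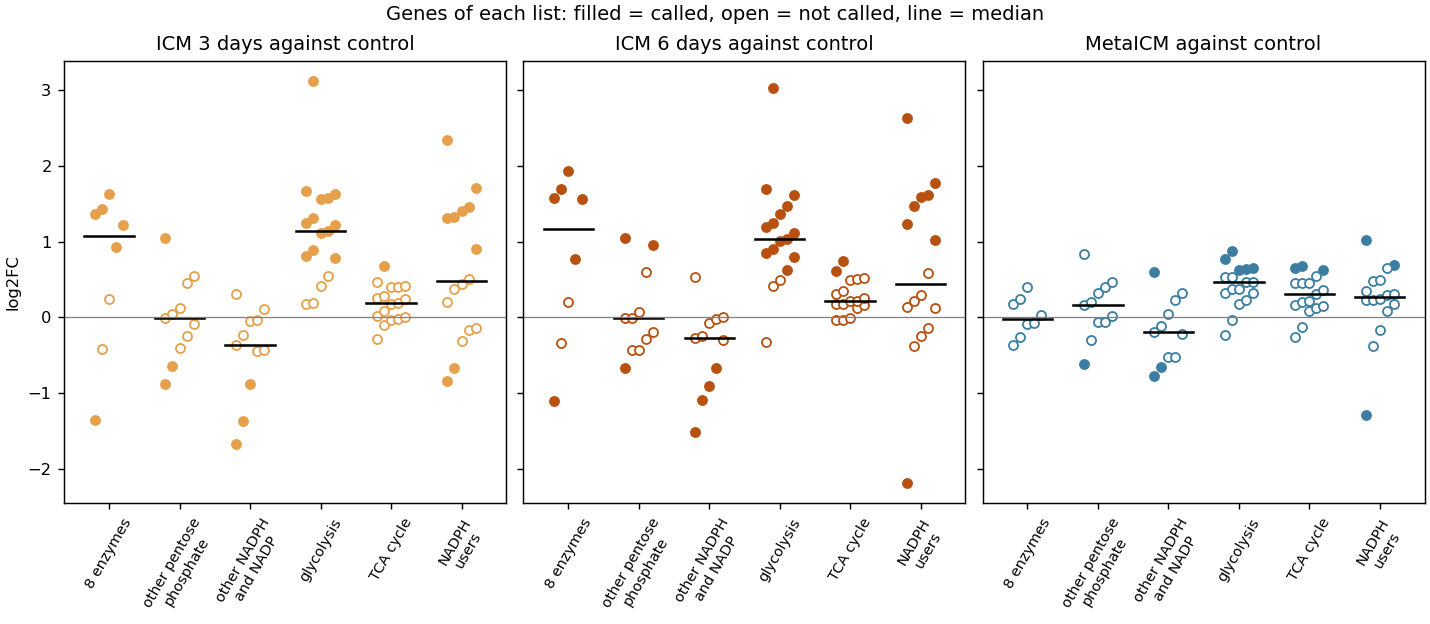
Log2FC against control (vertical axis) of the 8 enzyme genes and of 5 lists of related genes after 3 days, after 6 days and in MetaICM libraries; each point is a gene, filled where it was called, and lines mark the list's median. The 8 enzyme genes and glycolysis have medians above 1 with ICM, and the TCA cycle and other NADPH and NADP genes have medians of at most 0.31.

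The genes around these enzymes were described by lists, which were also chosen with earlier results of these data known. Of 17 genes of glycolysis, 13 rose after 3 days (median log2FC 1.14) and 14 after 6 days (median 1.03). ALDOC, an aldolase, rose by a log2FC of 3.12 and 3.03 at these times, and GAPDH, which makes NADH in glycolysis, by 1.67 and 1.70. GPI, which acts on the glucose phosphate that both pathways share, rose by 1.12 and 1.03. In MetaICM libraries 5 of the 17 were called higher, 10 without control replicate 1, 2 without control replicate 2 and 1 without MetaICM replicate 2. Of 17 TCA cycle genes, 1 rose after 3 days (IDH3G, which was not called without 3-day replicate 1) and 2 after 6 days, SDHC (0.75) and OGDH (0.61), of which 1 was left without control replicate 2 and 1 without 6-day replicate 2. In MetaICM libraries 3 of these 17 were called higher, SDHB (0.68), IDH3G (0.66) and SUCLG1 (0.62), and 0 without control replicate 2 or without MetaICM replicate 2.

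Among 11 other genes of the pentose phosphate pathway and of ribose use that passed the filter (14 listed), 1 rose and 2 fell after 3 days, and 2 rose and 1 fell after 6 days. PRPS1, which makes the activated ribose for nucleotides, fell by 0.88 on the log2 scale after 3 days (adjusted p = 0.000736), and PRPSAP1, a protein associated with it, fell by 0.65 at that time and by 0.67 after 6 days. PRPSAP2 rose by 0.96 after 6 days. With either 3-day library left out, 1 of the 2 falls at that time was called. PGLS, the lactonase that acts before PGD, had 15.0 and 15.2 CPM in control and 17.7 and 15.1 CPM after 3 days (log2FC 0.12, adjusted p = 0.633).

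Of 11 tested genes on a wider list of genes linked to NADPH, NADP+ or one-carbon metabolism, 3 fell after 3 days and 4 after 6 days. MTHFD2, a mitochondrial enzyme of one-carbon metabolism, fell the most, from 127.7 and 142.2 CPM in control to 47.3 and 37.4 CPM after 3 days and 48.7 and 46.0 CPM after 6 days (log2FC −1.67 and −1.52). ALDH1L2, which makes NADPH in mitochondria from formyl tetrahydrofolate, fell by 1.37 after 3 days, and MTHFD1L, of the same pathway, by 1.10 after 6 days. Lower levels on this list were not confined to mitochondrial enzymes. The cytosolic MTHFD1 had 95.7 and 91.2 CPM in control, 46.8 and 55.2 CPM after 3 days, and 59.1 and 58.9 CPM after 6 days. NNT, the transhydrogenase of the inner mitochondrial membrane, was at −0.44 after 3 days (adjusted p = 0.0212), under the cutoff.

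Of 16 genes of enzymes that spend NADPH, 7 rose and 2 fell after 3 days, and 7 rose and 1 fell after 6 days. With either 3-day library left out, 1 fall was called at 3 days, and without control replicate 1 it was 0. NQO1, a quinone reductase, rose by a log2FC of 2.35 and 2.64, and GSR, which keeps glutathione reduced, by 1.71 and 1.62. CBR3, a carbonyl reductase, rose by 1.77 after 6 days. NOX4, an NADPH oxidase, fell by 2.19 after 6 days.

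For each of the 6 called genes, the genes with the most similar log2 CPM profile over the 8 libraries were found among 14108 others with at least 10 counts in every library. The nearest to ME1 was GCLC, which encodes the catalytic subunit of glutamate cysteine ligase, with a Pearson r of 0.9993. IDH1 was nearest to UNKL (r = 0.9981). PGD was nearest to PHF20L1 (r = 0.9973), TALDO1 to NCOA4 (r = 0.9971), TKT to KDM5C (r = 0.9882) and RPIA to TDP1 (r = 0.9925). These r describe 8 points that fall into conditions and share libraries and depth.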

How the data were processed

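Factory RNA-Seq of IMR90 fibroblasts was analysed in 8 libraries. The authors aligned paired reads to hg19 (GRCh37) with STAR (version 2.6.0c) and deposited raw counts of pairs on RefSeq exons from featureCounts (version 1.6.3), without strand and without pairs on several genes; the study's own intronic values were not analysed here. Conditions were compared in pairs of groups (4 libraries per fit) with edgeR 4.0.16 in R 4.3.3: TMM factors, filterByExpr at a minimum of 10 counts, quasi-likelihood test, Benjamini-Hochberg adjustment over all genes tested. Standard errors were derived from log2FC and the F statistic, intervals are 95%, and levels are CPM with TMM factors over all libraries. Depth was 12095123 to 23166405 counts per library. No libraries were duplicates.

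Apart from all 8 enzyme genes, the text names the nearest profiles and, per list, up to 2 called genes per direction. These were the genes with the largest change against control and at least 10 counts in each library of the higher group. GPI, PGLS, NNT, MTHFD1, ME2, ME3, RPEL1, SUCLG1, PTPRC, PECAM1, CDH5 and IDH3 genes were named after their values were seen. Members and lists were chosen with earlier results of these data known. Some genes of these lists are counted but not reported here by name. Alternatives were DESeq2 1.42.0, its size factors, upper-quartile factors, library totals, 10 counts in every library, no filter, an adjusted p of 0.01, all 8 libraries in one fit, a replicate block and each library left out. The fits were tested on simulated counts with known changes, drawn with the fitted dispersions. Few genes were changed, with either direction equally likely. For 3 days against control, 101 of 15445 genes changed by an absolute log2FC of 1 and 95 by 2. Calls in the real data were far more and uneven in direction, so the recovered shares and false calls need not carry over to them. Of true changes with an absolute log2FC of 1, 72.3% to 88.7% were recovered, depending on the comparison. Of those with an absolute log2FC of 2, 93.3% to 99% were, and false calls ran from 2 to 10. Figures were drawn with matplotlib 3.10.9.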

Additional observations from a re-analysis of the deposited data

How the results depend on the processing

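In all 6 comparisons the number of enzyme genes called was within 1.5 times its main value under every alternative run, and 427 of 432 values of single genes under the 9 alternatives that kept all libraries stayed on their side of the cutoffs with the same direction. The exceptions were TKT in MetaICM against 6 days, which crossed the cutoff at −0.60 with DESeq2 and with its size factors, −0.62 with upper-quartile factors and −0.61 with library totals, and RPIA there with DESeq2 (0.73). With each library left out in turn (the lone library of a group assumed to vary like the other group), 180 of 192 values stayed. Of those that turned in direction, none of which was called, PGD in MetaICM against control ranged from −0.18 to 0.033, TKT from −0.075 to 0.50 and IDH2 from −0.067 to 0.16, and between 6 and 3 days RPE ranged from −0.13 to 0.039, ME1 from −0.13 to 0.012 and IDH2 from −0.13 to 0.34. Counts over all genes moved more: MetaICM against control gave 664 higher and 868 lower genes at an adjusted p of 0.01 (1179 and 1430 at 0.05), 2116 higher without control replicate 1, 807 lower without MetaICM replicate 1, and 469 higher and 580 lower without MetaICM replicate 2, and 3 days against control gave 851 higher genes without 3-day replicate 1 (1389 with it). With the replicate block, 6 of the 8 genes were called at 3 days and 6 at 6 days against control, as without it, and over all genes 1606 were higher and 2309 lower at 3 days (1389 and 2067 without it). Replicate differences correlated between conditions with r from −0.165 to 0.259, the highest being that of control with 3 days. As the signs were mixed, this check cannot decide whether equal replicate numbers mark paired samples. RPIA, at 29 to 92 counts, is the gene whose depth limits its precision most. With 2 libraries a group, outlying libraries could not be tested.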

Other observations

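Regulators of these pathways were measured in the same libraries. NFE2L2, which encodes NRF2, had 211 ± 35.6 CPM (SD, n = 2) in control, 225 ± 7.44 CPM after 3 days, 236 ± 20.6 CPM after 6 days and 187 ± 5.61 CPM in MetaICM libraries, with a log2FC against control of 0.090 after 3 days (edgeR quasi-likelihood adjusted p = 0.665) and 0.15 after 6 days (adjusted p = 0.387). Of 11 regulators, 4 were called higher at each ICM time and 1 was called lower after 6 days. The lower one was SREBF2, a regulator of cholesterol synthesis, at −0.62 (adjusted p = 0.00145), a count that became 0 with library totals, with no filter or without 6-day replicate 1 and 2 without control replicate 2. KEAP1, the adaptor that brings NRF2 to its ubiquitin ligase, rose by 1.12 on the log2 scale after 3 days (adjusted p = 0.000315) and by 0.98 after 6 days (adjusted p = 0.000373). MAFG, a small MAF protein, rose by 0.95 and 1.26 at these times. TIGAR, a phosphatase that favours the pentose phosphate pathway over glycolysis, rose by 0.93 (adjusted p = 0.000838) and 0.98 (adjusted p = 0.000283). TIGAR was chosen after its values were seen.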
